A study of Mus musculus with 4 samples.

Results

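Muscle satellite cells, the resident stem cells of skeletal muscle, were examined before and after injury in tibial muscles that carried the *Nse-Bmp4* transgene. They were chosen by measured values. A cell was counted as a satellite cell when it held at least 2 UMIs (unique molecular identifiers, 1 per captured transcript) of *Pax7*, *Myf5* and *Cdh15* together, at most 1 UMI of *Myog*, 0 UMIs of the leukocyte gene *Ptprc*, and no more than 10% of its UMIs in mitochondrial genes. This rule found 889 satellite cells among 59824 cells within the mitochondrial limit, from 62665 deposited cells. Of the 4 single-cell libraries, 1 came from uninjured muscle (Uninjured) and 3 were taken 1 day, 3 days or 7 days (1, 3 and 7 dpi) after an injection of cardiotoxin, a snake toxin that destroys muscle fibres. Each library pooled 3 tibial muscles, which were digested with collagenase and run on the 10x Genomics platform. All mice were C57BL/6, 6-8 weeks old, and carried *Nse-Bmp4*, a transgene in which the promoter of neuron-specific enolase drives *Bmp4* and which is used as a model of bone formation in soft tissue. The uninjured library carried the transgene as well, and no library without it was used here, so its effect cannot be told apart from anything the libraries share. With 1 library per time point no difference between time points was tested, time and library cannot be told apart, and all intervals in parentheses are 95% intervals that cover counting error only.

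Satellite cells lie between the muscle fibre and its basement membrane, where they are held out of the cell cycle by Notch and other signals. *Pax7* is the transcription factor that defines them, *Myf5* marks their commitment to muscle, and *Cdh15* encodes M-cadherin, which ties them to the fibre. After damage they leave quiescence, induce *Myod1*, divide as myoblasts, and either switch on *Myog* and fuse into new fibres or return to quiescence under the basement membrane.

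The library from uninjured muscle held 204 satellite cells, which were 1.72% (1.5-1.98) of its cells. At 1 dpi there were 107, or 0.986% (0.809-1.19). The largest number, 362, or 2.56% (2.31-2.84), was found at 3 dpi, and 216, or 0.938% (0.818-1.07), at 7 dpi. Because leukocytes filled different parts of the libraries, the share was also taken of the cells without a *Ptprc* UMI, where it was 1.96% in Uninjured, 2.07% at 1 dpi, 4.07% at 3 dpi and 1.11% at 7 dpi. The 3 dpi library was the highest and the 7 dpi library the lowest by either denominator, whereas 1 dpi was below Uninjured by the first only. When all cells were thinned to 2000 UMIs before the rule was applied, the shares were 1.03%, 0.719%, 1.25% and 0.676%. With the markers of other lineages at 0 they were 0.820%, 0.488%, 0.935% and 0.530%, so that 1 dpi was the lowest there. No barcode of a satellite cell occurred in more than 1 library.

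The satellite cells of 3 dpi were far deeper than the others. The median was 6216 UMIs per cell in Uninjured, 5354 at 1 dpi, 14582 at 3 dpi and 4193.5 at 7 dpi, and the medians of detected genes were 2130.5, 1914, 3959 and 1738. At 3 dpi the depths were spread over a wider range, and 209 of the 362 cells held at least 10000 UMIs, against 34 of 204 cells in Uninjured, 14 of 107 at 1 dpi and 24 of 216 at 7 dpi. Those deep cells carried 90.4% of all satellite cell UMIs at 3 dpi, so a level pooled over all UMIs describes mainly them. For this reason the main changes that involve 3 dpi are given below as the pooled ratio and again among the cells under 10000 UMIs alone, a division chosen after seeing the data. The pooled sums rested on 1571286, 811639, 6874258 and 1189567 UMIs in Uninjured, 1, 3 and 7 dpi.

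**Figure D1:**
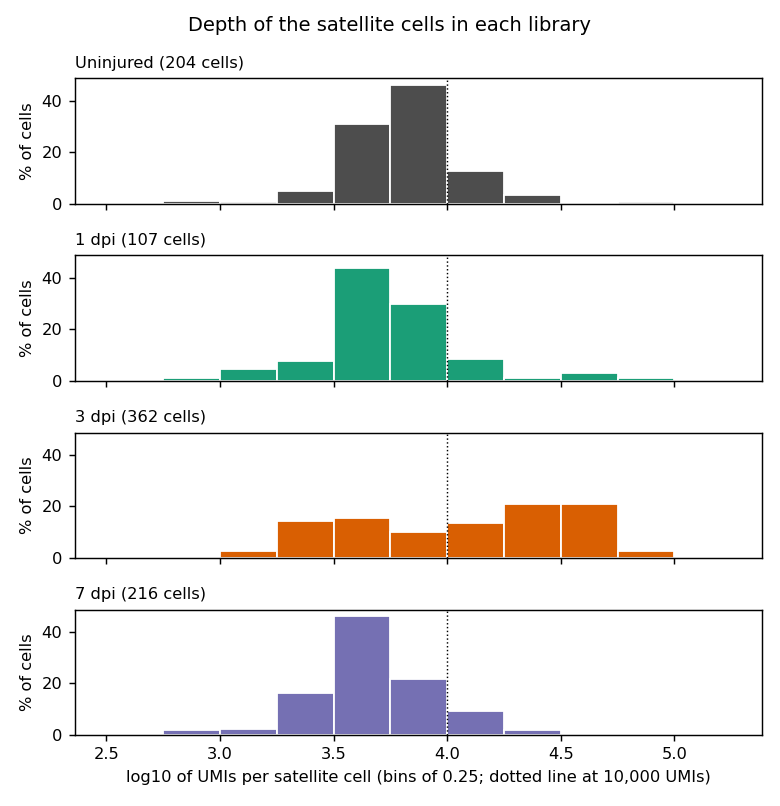
Depth of the satellite cells in each library, as percent of cells (vertical axis) in bins of 0.25 log10 UMIs per cell (horizontal axis), with a dotted line at 10000 UMIs. The 3 dpi library alone has most of its cells, 209 of 362, to the right of the line.

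The label was checked with *Chodl* and *Vgll2*, satellite cell markers that the rule did not use. *Chodl* (chr16:78930948-78951733, plus strand), which encodes the membrane protein chondrolectin, stood at 611, 879.7, 79.6 and 357 CPM (UMIs per 1000000 UMIs of all satellite cells of a library, given throughout in the order Uninjured, 1, 3 and 7 dpi), against 3.29, 3.51, 3.77 and 4.88 CPM in all other cells of the same libraries. *Vgll2*, a cofactor of TEAD transcription factors in muscle, stood at 55.4, 72.7, 106 and 83.2 CPM, against 0.914, 0.193, 5.95 and 1.79 CPM in the other cells. Both markers were higher in satellite cells than in other cells of every library, by the smallest margin in both cases at 3 dpi. After thinning to 2000 UMIs, *Chodl* was found in 57.7% of the shallow cells of 3 dpi (under 10000 UMIs) but in 1.91% of the deep ones, whose level was 9.57 CPM, while *Vgll2* was at 124 and 115 CPM. *Chodl* therefore does not carry the name for the deep cells of 3 dpi, and *Vgll2* was as high in *Myog*-positive myoblasts (135 CPM at 3 dpi). Whether those deep cells are satellite cells or dividing myoblasts without *Myog* is not settled by the rule, and they are called satellite cells here by the rule alone. Of the genes with a UMI in at least 10% of the satellite cells of each library, the 15 with the highest lowest-library ratio to all other cells included *Calcr*, *Chrdl2*, *Edn3*, *Lbx1* and *Fgfr4*. The lowest-library ratio was 40.9 for *Calcr* and 14.4 for the fifteenth gene, *Iqsec3*. These ratios come from the cells that the rule chose and are a description.

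Cells at the edge of the rule differed between libraries. A sum of exactly 2 UMIs over *Pax7*, *Myf5* and *Cdh15* was the ground for entry of 14, 10, 80 and 65 cells in Uninjured, 1, 3 and 7 dpi, of which 85.7%, 80%, 40% and 52.3% held a *Chodl* UMI. Just outside, with a sum of exactly 1, were 23, 15, 158 and 288 cells, of which 17.4%, 53.3%, 16.5% and 14.2% held a *Chodl* UMI and 69.6%, 40%, 45.6% and 22.6% a UMI of the mesenchymal gene *Pdgfra*. Among all cells outside the rule 0.817% to 1.49% held a *Chodl* UMI. The limit on *Myog* kept out 26, 0, 93 and 39 cells that met the rest of the rule.

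Markers of other cell types were present in the satellite cells. Without thinning, 98.5, 95.3, 98.3 and 99.1% of them held a UMI of a mesenchymal marker, 86.8, 84.1, 71.3 and 92.1% one of a mural marker and 7.84, 75.7, 61.9 and 23.6% one of a leukocyte marker. The 8 mesenchymal markers, all detected in each library, summed to 6288, 13991, 2338 and 8986 CPM, with *Dcn*, *Col1a1*, *Col3a1* and *Col1a1* the most abundant in turn, and the 5 cells richest in them held 36.3, 92.7, 25.6 and 24.4% of these UMIs. In cells chosen for at least 2 *Pdgfra* UMIs (mesenchymal cells) the same sum was 37575, 24556, 24458 and 30396 CPM. The 1 dpi value thus came almost wholly from 5 cells, and *Col1a1* is in addition an osteoblast gene. The 6 mural cell markers, led by *Acta2* except at 1 dpi (*Notch3*, itself a satellite cell gene), summed to 680.3, 386, 185 and 1366 CPM, and 1 of them was at 0 at 1 dpi. The 8 leukocyte markers, led by *Lyz2* or *S100a9*, gave 44.5, 251, 339 and 304 CPM against 8105, 11128, 4816 and 5859.6 CPM in lymphocytes (cells with *Ptprc* and at least 2 UMIs of *Cd3e* and *Cd79a* together), with 3, 2, 0 and 1 of them at 0. The 6 endothelial markers gave 2.55, 85.01, 4.51 and 6.73 CPM, led by *Cdh5* in Uninjured, *Cldn5* at 3 dpi and *Flt1* otherwise, with 4 of them at 0 in Uninjured and at 7 dpi. The 5 cells richest in each list held 100, 100, 54.8 and 87.5% of the endothelial UMIs and 84.3, 28.4, 80.2 and 72.1% of the leukocyte UMIs. The 5 red blood cell markers, led by *Hbb-bs*, gave 124, 7.39, 3.78 and 3.36 CPM, with 1, 2, 1 and 3 of them at 0. Their part in the results below was not tested.

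Few genes of satellite cell identity, quiescence and Notch signalling differed between Uninjured and 1 dpi. A gene was compared when the library with the higher level held at least 50 UMIs, and was called when the pooled levels differed at least 2-fold. Of 3627 genes compared, 5.38% were called higher and 8.55% lower at 1 dpi, with a median log2 ratio of -0.22 over all of them. Among 1628 of these genes with at least 100 CPM in the higher library the shares were 6.27% and 6.94%. Against this background, 1 of 20 quiescence genes was called higher and 0 lower, with a median log2 ratio of 0.28, and 0 of 17 further identity genes were called in either direction (median 0.06), where 13.9% of all genes were. Likewise 0 were called among 9 genes of the Notch pathway (median 0.29) and 13 receptors of growth factors and cytokines (median 0.40). Counts of cell cycle genes rested on few genes and few cells. Of 22 DNA replication genes 3 reached the minimum and were called higher, but 5 cells held 78.5% of the UMIs of the list at 1 dpi, and without the 5 deepest cells of each library the log2 ratio of its sum was 0.15 in place of 1.48. Of 8 mitosis genes 1 was called higher and 4 lower. Of 7 genes of commitment and fusion, 1, *Mef2d*, was called higher and 2, *Tnnt1* and *Ckb*, lower. In cells under 10000 UMIs the log2 ratio of the replication sum was 0.53, that of the mitosis sum -1.23 in place of -0.24, and that of the commitment sum 0.20 in place of 0.32. Beside the quiescence gene *Sdc3*, a heparan sulfate proteoglycan at 17.2 CPM in Uninjured and 66.5 CPM at 1 dpi, the calls lay in other genes. *Heyl*, a Notch target, was at 152 CPM in Uninjured and 272 CPM at 1 dpi, which is short of 2-fold. Its log2 ratio was 0.84 pooled, but 1.04 in cells under 10000 UMIs and 1.21 after thinning to 2000 UMIs, both past 2-fold.

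The genes called at 1 dpi included clock output, stress and secreted factor genes. *Dbp*, a clock-controlled transcription factor, was at 173, 22.2, 5.53 and 94.99 CPM, and *Usp2*, a clock-controlled deubiquitinase, at 80.2, 315, 33.7 and 22.7 CPM. At 1 dpi *Dbp* was 7.81-fold lower (4.85-13.4) and *Usp2* 3.93-fold higher (3.17-4.91) than in Uninjured. The direction was the same in mesenchymal cells, where *Dbp* was at 124, 5.74, 3.03 and 38.97 CPM and *Usp2* at 29.3, 85.8, 26.9 and 12.1 CPM. *G0s2*, an inhibitor of lipolysis, was at 391, 50.5, 23.7 and 184 CPM and 7.75-fold lower (5.64-10.9) at 1 dpi. *Hspb1*, a small heat shock protein, was at 1576, 404, 352 and 516 CPM and 3.901-fold lower (3.48-4.39). *Erfe*, encoding the hormone erythroferrone, was at 78.9, 269, 32.7 and 51.3 CPM and 3.404-fold higher (2.72-4.28), and at 269 CPM it was far above its 0.832, 1.04, 7.29 and 3.39 CPM in mesenchymal cells. *Lix1*, *Gamt*, *Rras*, *Hspb2*, *Limch1*, *Col26a1* and *Ppp1r14b* were also among the 10 with the largest ratios in the lower direction, and *Adamts9*, *Adamts15*, *Ikzf4*, *Usp54* and *Nupr1* among the 10 in the higher direction. *Col1a1* and *Col1a2* had the largest ratios of these 10, but 63.02% of the *Col1a1* UMIs and 64.9% of the *Nupr1* UMIs at 1 dpi came from a single cell each, and without the 5 deepest cells of each library the log2 ratio of *Col1a1* was -2.67 in place of 3.97.

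Among stress and immune genes, *Egr1* was the only immediate early gene of 19 compared that was called at 1 dpi, from 3943 CPM in Uninjured to 8129 CPM, where 5.38% of all genes were called higher. Of 10 interferon-stimulated genes compared, 2 were called higher and 0 lower (median 0.33), where 5.38% and 8.55% of all genes were. Of the 10, 8 held the minimum in both libraries, and 1 of these 8 was called. The 2 genes called higher were *B2m*, the light chain of MHC class I, at 265, 551, 180.1 and 265 CPM in the 4 libraries, and *Irf9*, a subunit of the interferon response factor ISGF3, at 30.5, 71.5, 15.1 and 22.7 CPM. *B2m* was 2.08-fold higher (1.81-2.38) and *Irf9* 2.34-fold higher (1.57-3.504). The list as a whole summed to 2457, 3519, 1497 and 2128 CPM, with 1 dpi the highest, and mesenchymal cells were also highest at 1 dpi (8579.7 CPM against 4778 CPM in Uninjured).

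**Figure D2:**
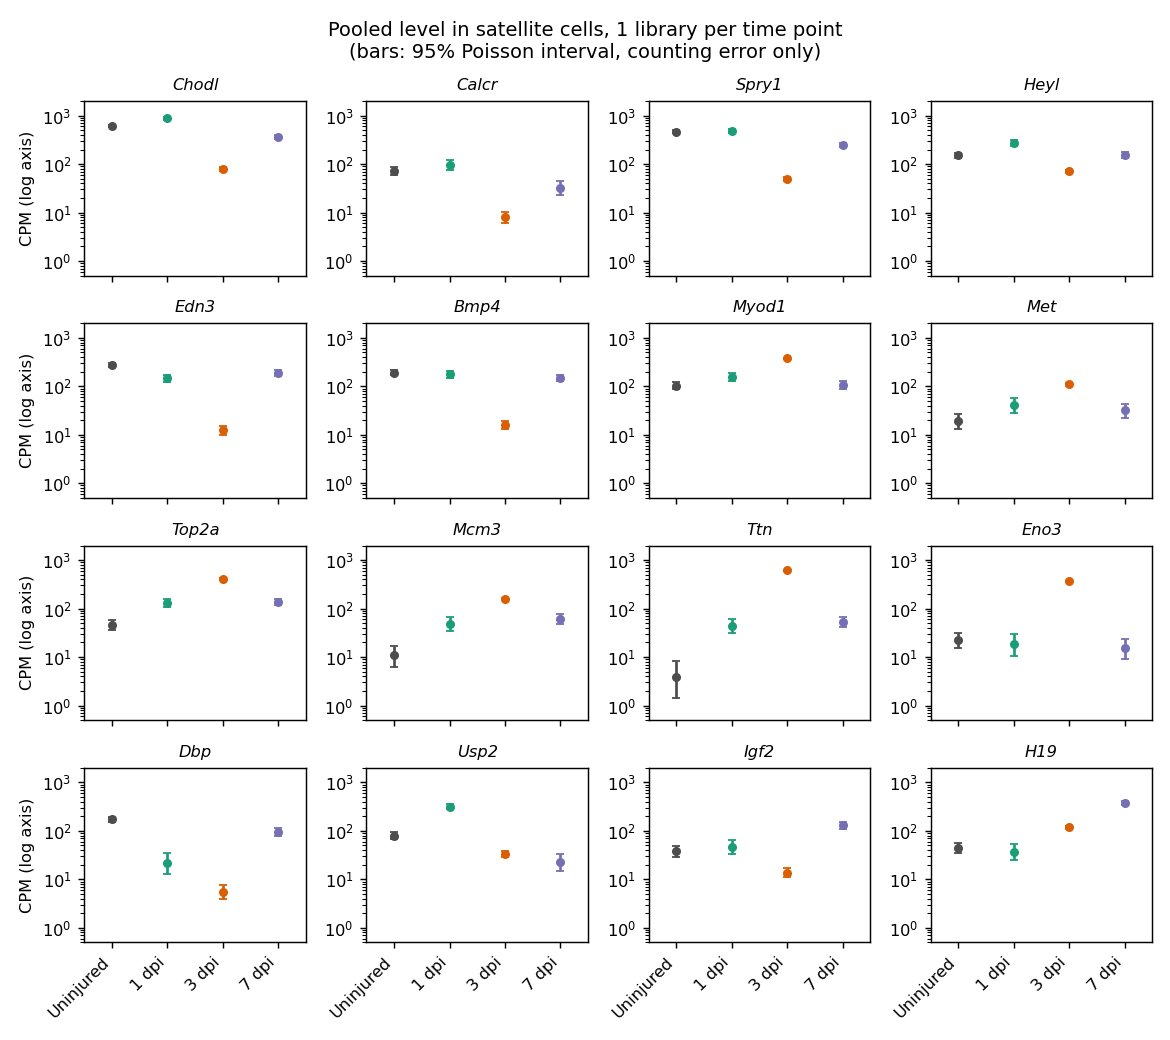
Pooled level of 16 genes in the satellite cells of each library, in CPM on a log axis, with 95% Poisson intervals (counting error only, 1 library per time point). *Chodl*, *Calcr*, *Spry1*, *Heyl*, *Edn3* and *Bmp4* have their lowest point at 3 dpi, where *Myod1*, *Met*, *Top2a*, *Mcm3*, *Ttn* and *Eno3* have their highest.

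At 3 dpi the quiescence program was low when UMIs were pooled. Of 6625 genes compared with 1 dpi, 26.6% were called higher and 7.05% lower, and the median log2 ratio of all genes was 0.54, against which values are to be read. The minimum of 50 UMIs equals 7.27 CPM at 3 dpi and 61.6 CPM at 1 dpi, so that genes high at 3 dpi were compared down to lower levels than genes high at 1 dpi. Of the genes compared, 4317 held the minimum at the higher of the libraries only, and of the 2308 that held it in both 304 were called higher and 452 lower. Among 1898 of these genes with at least 100 CPM in the higher library 25.6% were called higher and 16.4% lower, and in cells under 10000 UMIs 258 genes were called higher and 63 lower. In contrast, 17 of 19 quiescence genes were called lower and 1, *Chrna1*, higher, with a median log2 ratio of -1.95. Their summed level was 4611, 5692, 1475 and 3231 CPM in Uninjured, 1, 3 and 7 dpi, and 3.86-fold lower (3.73-3.996) at 3 dpi than at 1 dpi. In these pooled sums the 3 dpi library was the lowest of the 4. After thinning, cells under 10000 UMIs held 5503, 7914, 5420 and 3846 CPM of the list in Uninjured, 1, 3 and 7 dpi. There 3 dpi was close to Uninjured, and 7 dpi was the lowest. Without thinning, the log2 ratio of the quiescence sum of 3 dpi to 1 dpi was -0.73 in the cells under 10000 UMIs, in place of -1.95. Of 18 further identity genes compared, 6 were called lower and 3 higher (median -0.08). The log2 ratio of their sum was -0.64 pooled and -0.12 in the cells under 10000 UMIs.

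The quiescence genes that were low at 3 dpi had various roles. *Calcr*, the receptor for calcitonin and collagen V that keeps satellite cells quiescent, was at 71.9, 96.1, 8.001 and 32.8 CPM and 12.01-fold lower (8.398-17.3) at 3 dpi than at 1 dpi. *Spry1* (chr3:37639947-37644598, plus strand), an inhibitor of FGF signalling needed for return to quiescence, was at 469, 479, 49.02 and 249 CPM and 9.78-fold lower (8.43-11.3). *Gas1*, a growth arrest gene of the cell surface, was at 1245, 1905, 245 and 505 CPM and 7.79-fold lower (7.26-8.35). In each of these the pooled level of 3 dpi lay below the other 3, and 7 dpi lay below Uninjured. After thinning, cells under 10000 UMIs held 103, 109, 87.6 and 48.6 CPM of *Calcr*. They held 564, 747, 383 and 309 CPM of *Spry1*, so for both genes 7 dpi was the lowest there. *Chodl*, named above, was 11.1-fold lower (9.88-12.4) at 3 dpi. *Cd34*, a sialomucin of satellite cells and of mesenchymal cells, was at 144, 181, 47.7 and 70.6 CPM and 3.796-fold lower (3.103-4.62), while mesenchymal cells held 647, 837, 421 and 201 CPM. *Chrdl2*, a secreted BMP antagonist, was at 125, 195, 15.3 and 35.3 CPM and 12.7-fold lower (9.89-16.5). Restricted to cells under 10000 UMIs, the log2 ratios were -1.01 for *Calcr*, -1.16 for *Spry1*, -1.05 for *Gas1*, -0.87 for *Chodl*, 0.08 for *Cd34* and -0.95 for *Chrdl2*, so that the size of the difference depended on depth in all 6, and *Cd34* was not lower in the shallow cells.

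Pooled levels of Notch genes were low at 3 dpi as well. Of 8 compared, 5 were called lower than at 1 dpi and 1 higher (median -1.38), where 7.05% and 26.6% of all genes were. Of these 5, *Notch3*, *Heyl* and *Hes1* were also among the quiescence genes called lower, so the lists are not separate. Other quiescence genes recur in lists below, with *Calcr* and *Fgfr4* among the receptors, *Chrdl2* among the BMP genes and *Col15a1* in the basement membrane list. The receptor gene *Notch3* was at 202, 291, 61.1 and 161 CPM and 4.76-fold lower (4.04-5.595), and the effector genes *Heyl* and *Hes1* at 152, 272, 70.4 and 156 CPM and 272, 160.2, 57.3 and 182 CPM. *Heyl* was 3.87-fold lower (3.28-4.54) and *Hes1* 2.79-fold lower (2.27-3.42). The exception was the ligand gene *Dll1*, which was at 24.8, 2.46, 19.9 and 23.5 CPM, lowest at 1 dpi. The shallow cells gave log2 ratios of -0.98 for *Notch3*, -0.53 for *Heyl* and -1.04 for *Hes1*.

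The secreted peptide genes *Nppc* and *Edn3* were also low at 3 dpi, as was a part of the receptor genes. *Nppc*, encoding C-type natriuretic peptide, was at 603, 548, 28.4 and 80.7 CPM and 19.3-fold lower (16.3-22.99) at 3 dpi than at 1 dpi. *Edn3*, encoding endothelin 3, was at 277, 145, 12.4 and 191 CPM and 11.8-fold lower (8.82-15.7). Both were the lowest at 3 dpi, but at 7 dpi *Edn3* was within 2-fold of Uninjured and *Nppc* was not. Of 16 receptor genes compared, 8 were called lower and 1 higher (median -1.04), where 7.05% and 26.6% of all genes were. The single receptor gene called higher was *Met*, the receptor for hepatocyte growth factor, at 19.1, 40.7, 110.1 and 31.9 CPM and 2.71-fold higher (1.91-3.96). *Fgfr4*, the FGF receptor of satellite cells, was at 176, 206, 63.3 and 140.4 CPM and 3.25-fold lower (2.704-3.895). *Chrna1*, a subunit of the acetylcholine receptor, was at 89.7, 106, 319 and 134 CPM and 3.01-fold higher (2.42-3.78). The corresponding log2 ratios in cells under 10000 UMIs were -1.63 for *Nppc*, -0.92 for *Edn3*, 1.37 for *Met*, -0.62 for *Fgfr4* and 1.58 for *Chrna1*.

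Immediate early genes, which respond to growth signals and are also induced by tissue digestion, were low at 3 dpi when UMIs were pooled. Of 19 compared, 16 were called lower than at 1 dpi and 0 higher, where 7.05% and 26.6% of all genes were, with a median log2 ratio of -2.40. *Fos* was at 14439, 11459.5, 1607 and 6911 CPM in the 4 libraries and 7.13-fold lower (6.94-7.33), and *Jun* at 9995, 10754, 2200.2 and 5998 CPM and 4.89-fold lower (4.76-5.02). The list summed to 54417, 60076, 10616 and 29080.3 CPM in satellite cells, 36516, 22952, 13247 and 12691 CPM in mesenchymal cells and 26698, 17364, 18330.1 and 18663 CPM in lymphocytes. In these pooled sums the 3 dpi library was the lowest in satellite cells alone of these 3 cell types. After thinning, satellite cells under 10000 UMIs held 59930, 86419.5, 58033 and 34994 CPM of the list. There 3 dpi was close to Uninjured, and 7 dpi was the lowest, as in the pooled mesenchymal cells. Without thinning, the log2 ratio of 3 dpi to 1 dpi in those satellite cells was -0.80 for the list's sum, in place of -2.50. A part of digestion in these levels was not tested.

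Cell cycle genes were the counterpart, since their levels were highest at 3 dpi. The G2 and mitosis list summed to 808, 685, 3200.5 and 1401 CPM and the DNA replication list to 346, 967, 2580.2 and 995 CPM in Uninjured, 1, 3 and 7 dpi. All 22 mitosis genes were compared with 1 dpi and 21 were called higher, but 21 held the minimum at 3 dpi only. Of 22 DNA replication genes 19 were called higher, and 19 held it at 3 dpi only, so neither count is support beyond the levels. *Top2a*, the mitotic topoisomerase, was at 46.5, 132, 417 and 139 CPM, and *Cdk1*, the kinase that drives entry into mitosis, at 41.4, 43.1, 170.2 and 73.98 CPM. *Cdc20*, which activates the anaphase-promoting complex, was at 54.7, 16.02, 111 and 62.2 CPM, and *Ube2c*, the ubiquitin-conjugating enzyme that works with that complex, at 91.6, 49.3, 296 and 94.99 CPM. At 3 dpi *Top2a* was 3.16-fold higher (2.61-3.87), *Cdk1* 3.95-fold higher (2.82-5.69), *Cdc20* 6.95-fold higher (4.04-13.1) and *Ube2c* 6.01-fold higher (4.398-8.44) than at 1 dpi. The replication genes *Mcm3*, a subunit of the replicative helicase, and *Pcna*, the sliding clamp, were at 10.8, 48.1, 159 and 60.5 CPM and 50.9, 187, 271 and 129 CPM. *Mcm3* was 3.3-fold higher (2.398-4.67) at 3 dpi, whereas *Pcna* was 1.45-fold higher (1.23-1.72), having been 3.68-fold higher (2.79-4.88) at 1 dpi than in Uninjured. A single cell held 28.9% of the *Pcna* UMIs and 59.8% of the *Top2a* UMIs at 1 dpi. In cells under 10000 UMIs the log2 ratios were larger than the pooled ones for *Top2a* (4.83 in place of 1.66), *Cdk1* (3.52 in place of 1.98) and *Mcm3* (2.24 in place of 1.72), and they were 3.06 for *Cdc20*, 4.31 for *Ube2c* and 0.41 for *Pcna*.

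The mitosis genes of the first libraries came from few cells, so that their pooled levels before 3 dpi describe single cells. The 5 cells richest in the list held 95.4, 98.6, 9.05 and 40.4% of its UMIs. At 3 dpi the list was spread over many cells. Without the 5 deepest cells of each library the log2 ratio of 3 dpi to 1 dpi was 7.52 in place of 2.22, and among cells under 10000 UMIs it was 6.18. The DNA replication list gave 1.54 in those cells in place of 1.42.

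After thinning every cell to 2000 UMIs, a *Mki67* or *Top2a* UMI was found in 4.02% (1.75-7.77) of satellite cells in Uninjured, 1.98% (0.241-6.97) at 1 dpi, 41.3% (36.1-46.7) at 3 dpi and 18.6% (13.4-24.7) at 7 dpi. Thinning left out 5, 6, 16 and 17 shallower cells, and without thinning the shares were 3.92, 3.74, 62.2 and 25.9%. The same thinned shares were 1.66, 3.14, 11.9 and 15.8% in mesenchymal cells, with median depths of 9700, 9412, 9373 and 10055.5 UMIs before thinning, and 5.24, 7.58, 18.5 and 19.8% in lymphocytes, with medians of 2757.5, 3158, 2463 and 2066. The 3 dpi share alone stood above both other cell types, which can divide themselves and so are no background without these genes. At 7 dpi the 37 satellite cells with such a UMI held 5311 CPM of the mitosis list, against 188 CPM in the other 162. Since *Mki67* and *Top2a* are members of that list, the direction of this difference was fixed by the split, and the values are a description. Neutrophils had been taken as a cell type that lacks the pair, but with 0, 25.9, 44.04 and 16.1% they did not serve as a background either.

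**Figure D3:**
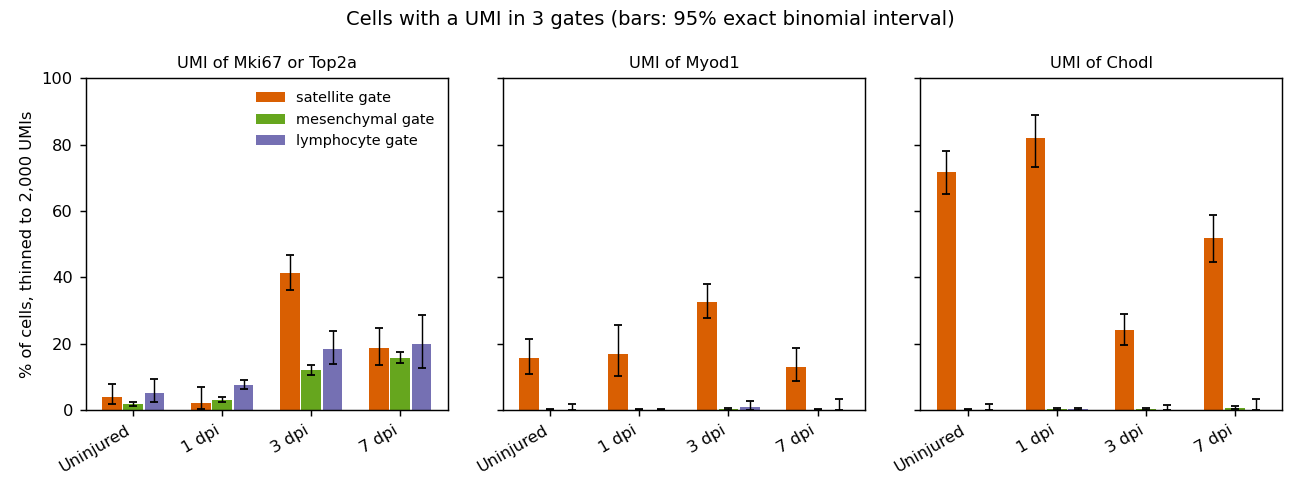
Percent of cells (vertical axis) with a UMI of *Mki67* or *Top2a*, of *Myod1* and of *Chodl* in satellite cells, mesenchymal cells and lymphocytes of each library, after thinning to 2000 UMIs per cell, with 95% exact binomial intervals. The *Mki67* or *Top2a* share of satellite cells lies above both other gates at 3 dpi only. *Myod1* and *Chodl* are close to 0 in both other gates, whose cells hold no UMI of *Pax7*, *Myf5*, *Cdh15* or *Myog* by definition. *Myog*-positive myoblasts are not drawn.

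Because the mitosis genes were higher together at 3 dpi, their promoters were searched for a pair of letter strings known from cell cycle promoters, the CCAAT box and the cell cycle homology region TTTGAA, on both strands of the 250 bases before the start (RefSeq). CCAAT was found in 17 of 19 mitosis promoters matched by symbol, of 22 genes in the list (89.5%), in 11 of 19 of DNA replication genes (57.9%), in 5 of 16 of immediate early genes (31.3%) and in 4 of 14 of quiescence genes (28.6%), and in 34.5% of all 27025 promoters. TTTGAA was found in 7 of 19 mitosis promoters (36.8%) and in 16.3% of all promoters. The strings do not overlap each other in the windows below, and a match is a description, not a binding site. The 150 bases before the start of 3 of the genes that hold both strings are shown to let the spacing be seen, written 5′ to 3′ on the strand of the gene with the matches to either strand in capitals (build GRCm38.p6). The windows are chr4:118437344-118437493 (minus strand) for *Cdc20*, chr11:99024190-99024339 (minus strand) for *Top2a* and chr10:69352913-69353062 (minus strand) for *Cdk1*.
Cdc20: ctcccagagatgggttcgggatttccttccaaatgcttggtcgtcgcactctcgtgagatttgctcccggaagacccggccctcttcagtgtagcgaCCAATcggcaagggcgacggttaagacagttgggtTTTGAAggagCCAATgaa
Top2a: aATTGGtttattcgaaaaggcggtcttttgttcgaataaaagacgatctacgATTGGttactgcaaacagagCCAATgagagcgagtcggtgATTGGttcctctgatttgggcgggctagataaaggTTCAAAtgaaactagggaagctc
Cdk1: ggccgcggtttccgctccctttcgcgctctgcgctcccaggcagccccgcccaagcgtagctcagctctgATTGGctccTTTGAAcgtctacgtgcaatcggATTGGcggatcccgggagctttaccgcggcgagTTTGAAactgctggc

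*Myod1* and a part of the muscle commitment genes were also high at 3 dpi. *Myod1* (chr7:46376474-46379099, plus strand), the transcription factor that commits satellite cells to the myoblast fate, was at 104, 155, 378 and 106 CPM and 2.43-fold higher (2.03-2.93) at 3 dpi than at 1 dpi. After thinning, a *Myod1* UMI was found in 15.6, 16.8, 32.7 and 13.1% of satellite cells, against at most 0.311% of mesenchymal cells and at most 0.769% of lymphocytes. Mesenchymal cells and lymphocytes were taken without any UMI of *Pax7*, *Myf5*, *Cdh15* or *Myog*. Without thinning the shares of satellite cells were 31.4, 32.7, 59.1 and 25.9%. The 3 dpi library was the highest and the other 3 overlapped within their intervals. *Pax7* was among the genes that chose the cells, so its pairing with *Myod1* is a description. Thinned cells with *Pax7* and no *Myod1* made up 57.8%, 57.4%, 26.3% and 51.3%, and cells with *Myod1* and no *Pax7* 6.03%, 5.94%, 25.4% and 11.1%. A UMI of both was seen in 9.55%, 10.9%, 7.23% and 2.01%, and since a thinned cell can miss a gene that it expresses this share is a lower limit. Of 10 genes of commitment and fusion compared, 5 were called higher than at 1 dpi and 0 lower, where 26.6% and 7.05% of all genes were. Of these 10, 6 held the minimum at 3 dpi only, and of the other 4, 1 was called higher. The list summed to 653, 814, 1139.6 and 759 CPM, a log2 ratio of 3 dpi to 1 dpi of 0.48, which is below the median of all genes, and of 0.66 in cells under 10000 UMIs. *Hes6*, a promoter of myogenic differentiation, was at 31.2, 29.6, 99.9 and 28.6 CPM and 3.38-fold higher (2.25-5.31), and *Mymk*, encoding the fusion protein myomaker, at 0, 0, 9.16 and 0.841 CPM. For cells under 10000 UMIs the log2 ratio of *Myod1* was 0.91 and that of *Hes6* 0.33.

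Genes of the mature fibre reached their highest level at 3 dpi. All 16 together held 76 UMIs at 1 dpi and none reached the minimum there, so the 8 genes compared, of which 7 were called higher, passed it through 3 dpi alone and their count is no support. The list summed to 121, 93.6, 1125 and 158 CPM in satellite cells and to 2001, 4784 and 2832 CPM in the *Myog*-positive myoblasts of Uninjured, 3 and 7 dpi. *Ttn*, encoding the sarcomere spring titin, was at 3.82, 44.4, 615 and 53.8 CPM, with 97.2% of its 1 dpi UMIs in a single cell. *Eno3*, the muscle enolase, was at 22.3, 18.5, 365 and 15.1 CPM and 19.8-fold higher (11.96-35.4), and the troponin gene *Tnni2* at 4.45, 2.46, 37.1 and 5.88 CPM. The neuronal and synaptic genes *Nrcam*, a cell adhesion molecule, and *Dok7*, an adaptor of the muscle kinase MuSK, had the largest ratios, with levels of 2.55, 1.23, 68.4 and 0 CPM and 1.91, 1.23, 33.7 and 6.73 CPM. Each had 1 UMI at 1 dpi, and *Nrcam* was 55.5-fold higher (9.91-2196) and *Dok7* 27.4-fold higher (4.87-1087). Without the 5 deepest cells of each library the log2 ratio of the fibre list was 5.03 in place of 3.59, and among cells under 10000 UMIs it was 3.55.

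Among metabolic genes, 10 of 16 genes of glycolysis and hypoxia compared were called higher at 3 dpi than at 1 dpi and 1, *Ddit4*, lower (median 1.26). Of all genes, 26.6% were called higher and 7.05% lower. The minimum was held at both times by 12 of the 16, of which 8 were called higher and 1 lower. *Pgk1*, a kinase of glycolysis, was at 103, 136, 609 and 212 CPM, *Pkm*, the pyruvate kinase, at 296, 379, 1028 and 395 CPM, and *Ldha*, lactate dehydrogenase, at 256, 232, 684 and 345 CPM. The 3 dpi library was the highest of the 4 for each. Over the list the sums were 2961, 2692, 7668 and 3899 CPM in satellite cells and 2454, 2775, 4532 and 5275 CPM in mesenchymal cells, which were highest at 7 dpi instead. Shallow cells gave a log2 ratio of the list of 0.93 in place of 1.51. For 7 dpi to 3 dpi they gave -0.0014 in place of -0.98, so 3 and 7 dpi were level there. *Mt1*, encoding a metallothionein, was at 4095, 3234, 774 and 1204 CPM and 4.18-fold lower (3.99-4.38) at 3 dpi than at 1 dpi, but within 2-fold in cells under 10000 UMIs (log2 ratio -0.84 in place of -2.06). Of 14 basement membrane genes, 9 were called lower and 1 higher, *Col4a1* being at 657, 379, 92.5 and 580.0 CPM and *Col15a1* at 218, 113, 18.2 and 168 CPM, but among cells under 10000 UMIs the sum of the list was not lower (log2 ratio 0.21 in place of -1.88).

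**Figure D4:**
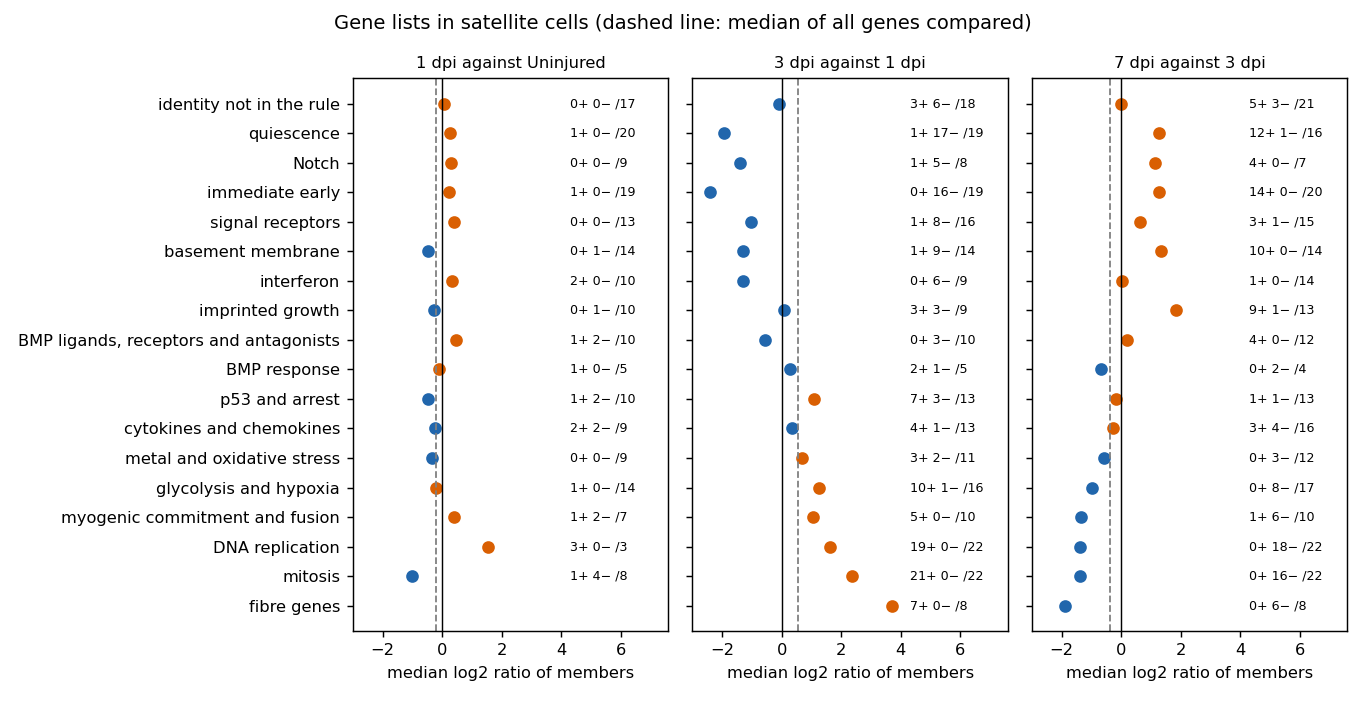
Median log2 ratio of the compared members of 18 gene lists (points, orange above and blue below the median of all genes, which is the dashed line) for 1 dpi against Uninjured, 3 dpi against 1 dpi and 7 dpi against 3 dpi, with the numbers called higher (+), lower (−) and compared at the right of each panel. The lists of matrix, cartilage and bone and the markers of other cell types are not drawn. Of the lists drawn, the immediate early and quiescence medians lie lowest at 3 dpi, at -2.40 and -1.95, and the mitosis and fibre medians highest, at 2.36 and 3.71, where 21 of 22 mitosis genes and all 8 fibre genes compared passed the minimum through 3 dpi alone.

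Within the 3 dpi library the deep and the shallow satellite cells differed in most of these genes, after both were thinned to 2000 UMIs. The 209 cells with at least 10000 UMIs had a median depth of 28311 UMIs, and the 137 shallower cells one of 3892. *Chodl* was at 9.57 CPM in the deep and 945 CPM in the shallow cells, *Spry1* at 21.5 and 383 CPM, and *Calcr* at 4.78 and 87.6 CPM. Shallow cells of Uninjured held 876, 564 and 103 CPM of these 3 genes, near those of the shallow and far above the deep cells of 3 dpi. *Myod1* went the other way, with 344 CPM in the deep and 175 CPM in the shallow cells, as did the mitosis list (3081 and 919.7 CPM), the DNA replication list (2586 and 927 CPM) and the fibre list (1184 and 343 CPM). The immediate early list was at 7464 CPM in the deep and 58033 CPM in the shallow cells. The shallow cells of 3 dpi were still above those of Uninjured in the mitosis list, at 51.5 CPM there. Of the mesenchymal genes, *Dcn* was at 376 CPM in the deep and 978 CPM in the shallow cells, and *Col1a1* went the other way with 541 and 255 CPM. *Pax7*, which the rule used, was at 115 and 536 CPM. The rule was applied before thinning, so a shallow cell needed a higher level of *Pax7*, *Myf5* and *Cdh15* to enter than a deep one. A part of the *Pax7* difference was thus fixed by the rule. What this adds to the differences in *Chodl*, *Calcr* and *Spry1* was not tested.

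**Figure D5:**
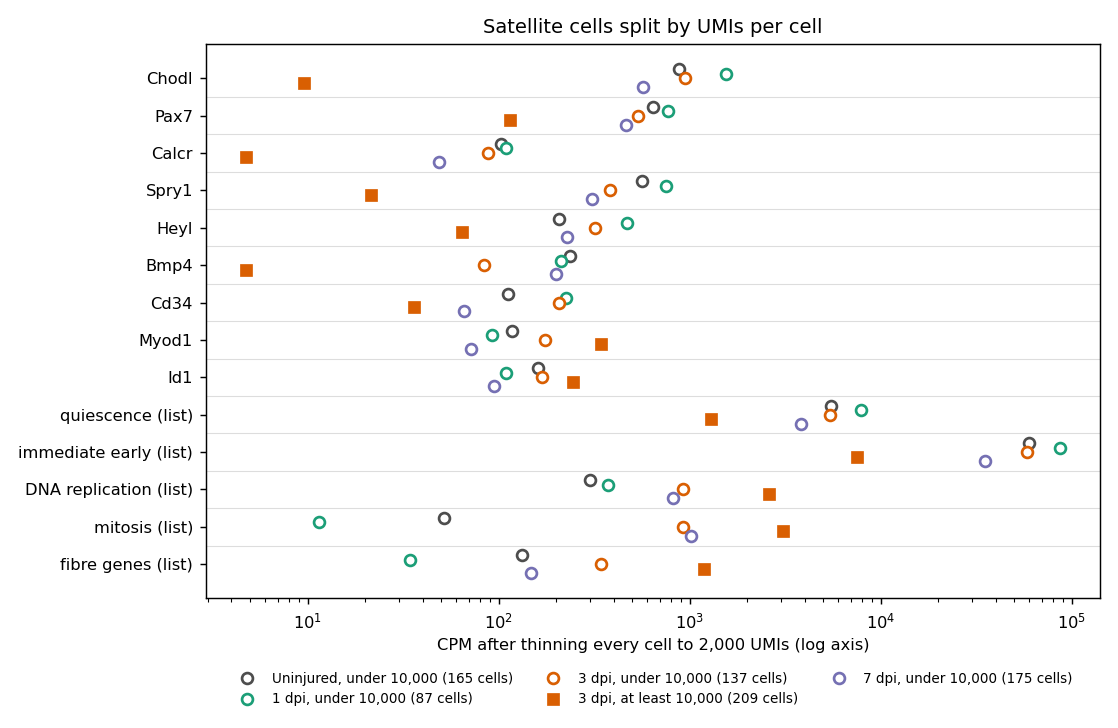
Levels in CPM (log axis) of 9 genes and 5 summed gene lists in satellite cells thinned to 2000 UMIs, for cells under 10000 UMIs in each library (open circles) and cells with at least 10000 UMIs at 3 dpi (filled squares). The filled squares lie far to the left for *Chodl*, *Calcr*, *Spry1* and *Bmp4* and to the right for *Myod1*, mitosis, DNA replication and fibre genes.

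At 7 dpi the cell cycle and fibre genes were lower than at 3 dpi. Of 7200 genes compared with 3 dpi, 6.82% were called higher and 19.2% lower, with a median log2 ratio of -0.39. With at least 100 CPM in the higher library, 12.7% and 14.7% of 1875 genes were called. Among cells under 10000 UMIs 164 genes were called higher and 161 lower. Of 22 mitosis genes 16 were called lower and 0 higher (median -1.37), of 22 DNA replication genes 18 and 0 (median -1.39), and of 8 fibre genes, again compared through their level at 3 dpi, 6 and 0. Among genes that held the minimum at both times, 7 of 12 mitosis and 8 of 11 DNA replication genes were called lower. *Top2a* was 3.004-fold lower (2.57-3.54), *Ttn* 11.4-fold lower (8.94-14.9), *Eno3* 24.1-fold lower (15.2-40.8) and *Myod1* 3.57-fold lower (2.98-4.298) at 7 dpi, with log2 ratios in shallow cells of -0.40, -2.26, -2.56 and -1.21. *Hmga2*, a chromatin protein of proliferating progenitors, was at 9.55, 22.2, 138 and 0 CPM and *Fosl1*, an AP-1 subunit, at 9.55, 39.4, 75.6 and 0.841 CPM, both near 0 at 7 dpi. *Cavin4*, a caveolar protein of muscle, was at 1.91, 6.16, 45.97 and 1.68 CPM. In cells under 10000 UMIs the log2 ratio was -0.16 for the mitosis list in place of -1.19, -0.18 for DNA replication in place of -1.37, and -1.48 for fibre genes in place of -2.83. Cells with at least 10000 UMIs were 209 of 362 at 3 dpi and 24 of 216 at 7 dpi.

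The pooled levels of quiescence genes were higher at 7 dpi than at 3 dpi, but this depended on how cells were weighted. Of 16 compared, 12 were called higher and 1, *Chrna1*, lower (median 1.29), where 6.82% and 19.2% of all genes were. Of 7 Notch genes 4 were called higher, and of 20 immediate early genes 14. When each cell counted equally, as the mean of the CPM of single cells, the log2 ratio of the quiescence sum was 0.27 in place of 1.13, and among cells under 10000 UMIs it was -0.38. The immediate early sum gave 0.17 and -0.53 in place of 1.45, and the Notch sum 0.52 and -0.02 in place of 1.04. In all 3 lists the sign among the shallow cells was the opposite of the pooled one. For *Spry1* the pooled ratio was 5.08-fold higher (4.33-5.95), with log2 ratios of 0.68 for the mean over cells and -0.12 in shallow cells. For *Chodl* it was 4.49-fold higher (3.95-5.11), with 0.18 and -0.69, and for *Heyl* 2.22-fold higher (1.87-2.64), with 0.05 and -0.63. The Notch receptor gene *Notch3* was 2.63-fold higher (2.203-3.13), and its log2 ratio was -0.03 after thinning and -0.23 in shallow cells. None of these 4 genes was thus higher at 7 dpi in the shallow cells, which made up 192 of the 216 cells of that library.

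Other genes were higher at 7 dpi by either weighting. *Edn3* was 15.4-fold higher (11.98-20.04) at 7 dpi, with a log2 ratio of 1.84 for the mean over cells and 1.07 among cells under 10000 UMIs. *Itm2a*, a membrane protein of developing muscle and cartilage, was at 629, 191, 103 and 1061 CPM and 10.3-fold higher (9.41-11.3), with log2 ratios of 2.47 and 1.89. *Dbp* was 17.2-fold higher (11.8-25.5), with 3.15 and 2.78, and *G0s2* 7.76-fold higher (6.31-9.57), with 2.06 and 1.78. In mesenchymal cells *Itm2a* was at 829, 209, 191 and 912 CPM, *Dbp* at 124, 5.74, 3.03 and 38.97 CPM and *G0s2* at 357, 109.7, 41.2 and 47.02 CPM, so *Itm2a* and *Dbp* were low at 1 and 3 dpi in both cell types.

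Most imprinted genes of the growth network were higher at 7 dpi than at 3 dpi when UMIs were pooled. Of 13 compared, 9 were called higher than at 3 dpi and 1, *Peg10*, lower (median log2 ratio 1.83), where 6.82% and 19.2% of all genes were. In cells under 10000 UMIs the log2 ratio of the list's sum was 0.25 in place of 1.47, and against Uninjured it was 0.10 pooled and -0.06 in shallow cells. *Igf2* (chr7:142650766-142666816, minus strand), the fetal growth factor, was at 38.2, 46.8, 13.7 and 130.3 CPM, and *H19* (chr7:142575529-142578143, minus strand), the long noncoding RNA next to it, at 43.9, 36.96, 117 and 372 CPM. *Dlk1*, a membrane protein of the Notch ligand family, was at 9.55, 1.23, 1.31 and 42.9 CPM and *Meg3*, the noncoding RNA of the same imprinted domain, at 2304, 1917, 221 and 1449 CPM. *Igf2*, *H19* and *Dlk1* were highest at 7 dpi, and *Meg3* was low at 3 dpi only. Against Uninjured, *Igf2* was 3.41-fold higher (2.52-4.68) and *H19* 8.48-fold higher (6.57-11.1) at 7 dpi. Over the cells under 10000 UMIs the log2 ratio of 7 dpi to Uninjured was 1.44 for *Igf2* and 2.42 for *H19*, and that of 7 dpi to 3 dpi was 1.17 for *Igf2*, 1.40 for *H19*, 3.27 for *Dlk1* and 0.34 for *Meg3*. The same genes were high at 7 dpi elsewhere, with *H19* at 44.95, 11.99, 70.99 and 624 CPM, *Igf2* at 17.8, 3.85, 3.32 and 46.3 CPM and *Dlk1* at 29.6, 8.71, 3.94 and 48.8 CPM in mesenchymal cells, and lymphocytes at 7 dpi held 899 CPM of the list, up from 104 CPM at 3 dpi. *Igf1*, a growth factor of regenerating muscle, was at 123, 71.5, 41.5 and 507 CPM and 12.2-fold higher (10.6-14.1) at 7 dpi than at 3 dpi, with a log2 ratio of 1.41 in shallow cells in place of 3.61.

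Matrix, cartilage and bone genes were found in the satellite cells, with the levels of other cells beside them. Of 17 interstitial matrix genes compared, 15 were called higher at 7 dpi than at 3 dpi and 0 lower, and of 12 cartilage and bone genes 10 and 1. Of all genes, 6.82% were called higher and 19.2% lower. All 17 matrix genes held the minimum at both times, whereas 11 of the 12 cartilage and bone genes held it in 1 library only, so the latter count is no support. The matrix list summed to 6351, 25449.7, 4477 and 16846 CPM in satellite cells, 32678, 17467, 35704 and 53939.7 CPM in mesenchymal cells and 2783, 583, 1040.4 and 8406 CPM in lymphocytes. The cartilage and bone list summed to 83.4, 10649, 215 and 2002 CPM in satellite cells, 107, 131, 150.4 and 3103 CPM in mesenchymal cells and 44.9, 31.7, 57.7 and 1987 CPM in lymphocytes. At 7 dpi the sum in satellite cells was close to that of lymphocytes, which do not make cartilage, but the leading gene was *Ibsp*, a sialoprotein of bone, in satellite cells and *Col2a1*, the main cartilage collagen, in lymphocytes. A single cell held 56.8% of the *Ibsp* UMIs, and 5 cells held 59.4% of the UMIs of the list. *Col2a1* was at 349 CPM in satellite cells and 1040.1 CPM in lymphocytes at 7 dpi. Free RNA as a source was not tested. The 1 dpi sum had 99.1% of its UMIs in 5 cells and was led by *Bglap*, encoding osteocalcin, at 0, 10114, 0 and 0 CPM. Among cells under 10000 UMIs the log2 ratio of 7 dpi to 3 dpi was 1.27 for the matrix list in place of 1.91, and 3.10 for the cartilage and bone list in place of 3.22. That of 1 dpi to Uninjured was 0.92 for the latter in place of 7.00. For the matrix list the same ratio was -0.22 in these cells, opposite in sign to the pooled one. The matrix sum of 1 dpi had 93.5% of its UMIs in 5 cells. *Col1a1*, the main collagen of bone and scar, was at 728, 11441, 519.6 and 4062 CPM in satellite cells and 386, 76.2, 149 and 1853 CPM in lymphocytes. *Acta2*, the smooth muscle actin, was at 409, 86.2, 107 and 1086 CPM, against 66.1, 6.81, 210.3 and 617 CPM in mesenchymal cells.

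Compared with Uninjured, satellite cells at 7 dpi were close in most genes. Of 4175 genes compared, 5.49% were called higher and 4.07% lower, with a median log2 ratio of 0.04. For 1635 genes of at least 100 CPM in the higher library the shares were 6.48% and 5.08%. Of 19 quiescence genes 4 were called lower (*Calcr*, *Cd34*, *Chrdl2* and *Gas1*) and 1, *Cdkn1c*, higher. *Gas1* was 2.47-fold lower (2.25-2.71) and *Chrdl2* 3.53-fold lower (2.52-5.06). *Nppc* was 7.47-fold lower (6.05-9.31), and *Sdc4*, a proteoglycan of satellite cells, at 1282, 1311, 470.2 and 474 CPM in the 4 libraries, was 2.705-fold lower (2.46-2.97). Of 11 DNA replication genes 9 were called higher and 0 lower, of 12 mitosis genes 4 and 0, and of 20 immediate early genes 0 and 5. Of the 11 replication genes 7, and of the 12 mitosis genes 2, held the minimum in 1 library only, and among those that held it in both, 3 of 4 replication and 2 of 10 mitosis genes were called higher. The mitosis sum depended on 5 cells that held 95.4% of its UMIs in Uninjured. Its log2 ratio was 0.79 pooled, 2.11 without the 5 deepest cells of each library, 2.04 for the mean over cells and 4.78 among cells under 10000 UMIs. *Mt1* was 3.402-fold lower (3.21-3.61) and *Hspb1* 3.05-fold lower (2.79-3.34). Among 9 Notch genes 0 were called in either direction, and among 18 identity genes 1, *Sdc4*, where 9.56% of all genes were.

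The BMP pathway was examined because all mice carried the *Bmp4* transgene. In it, secreted ligands bind pairs of receptor kinases, which activate Smad proteins and *Id* genes, and secreted antagonists trap the ligands. *Bmp4* (chr14:46383520-46390669, minus strand) was at 192, 176, 15.7 and 150.5 CPM in satellite cells, 115, 85.99, 50.2 and 26.2 CPM in mesenchymal cells and 27.6, 2.33, 2.88 and 0 CPM in lymphocytes. A *Bmp4* UMI was found in 28.1, 26.7, 6.07 and 26.6% of thinned satellite cells and 60.8, 53.3, 22.1 and 43.98% without thinning, against 1.05, 0.649, 0.385 and 0% of thinned lymphocytes. It was 11.2-fold lower (8.67-14.5) at 3 dpi than at 1 dpi and 9.58-fold higher (7.501-12.3) at 7 dpi than at 3 dpi. Below 10000 UMIs per cell the log2 ratios were -1.70 and 1.15, and for the mean over cells -2.26 and 1.71, so *Bmp4* kept both directions. Whether these UMIs come from the transgene was not tested, and *Eno2*, the gene of neuron-specific enolase itself, was at 0, 1.23, 0.582 and 3.36 CPM. *Bmp6*, a further ligand, was at 56.6, 103, 7.56 and 52.1 CPM, 13.7-fold lower (9.57-19.7) at 3 dpi and 6.89-fold higher (4.69-10.2) at 7 dpi. In shallow cells its log2 ratios were -0.98 and -0.16 in place of -3.77 and 2.78, so that both were within 2-fold there.

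Of 6 BMP receptor genes in the list, *Bmpr1a* and *Bmpr2* had enough UMIs for all 4 comparisons and neither was called in any, with *Bmpr1a* at 42, 64.1, 56.01 and 64.7 CPM and *Bmpr2* at 53.5, 106, 60.5 and 75.7 CPM. The target genes did not move together. *Id1* (chr2:152736251-152737410, plus strand) was at 151, 96.1, 223 and 87.4 CPM and *Id2* at 115, 106, 264 and 127 CPM, both the highest at 3 dpi, where *Id1* was 2.32-fold higher (1.84-2.95) and *Id2* 2.49-fold higher (2.01-3.13) than at 1 dpi. *Id3* was at 1391, 967, 715 and 829 CPM, the lowest at 3 dpi like *Bmp4*. Of 5 response genes compared 2 were called higher at 3 dpi and 1, *Bambi*, lower, and of 10 ligands, receptors and antagonists 0 and 3, where 26.6% of all genes were called higher and 7.05% lower. *Bambi*, a decoy receptor, was at 28, 70.2, 6.55 and 31.1 CPM and thus also the lowest at 3 dpi, with a log2 ratio to 1 dpi of -3.42 beside -3.49 for *Bmp4*. Without the 5 deepest cells of each library these ratios lay further apart, at -2.61 for *Bambi* and -3.95 for *Bmp4*. Counting shallow cells alone, the log2 ratio of 3 dpi to 1 dpi was 0.55 for *Id1*, 0.38 for *Id2* and -1.55 for *Bambi*. The antagonist genes *Nog* and *Grem1* were at 0, 0, 0.436 and 1.68 CPM and 0, 0, 0 and 3.36 CPM, at or near 0 in each library.

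The nearest cell type was the *Myog*-positive myoblast, taken with at least 2 *Myog* UMIs, of which there were 47, 0, 134 and 271 cells with median depths of 13275, none, 17869.5 and 4160 UMIs. *Chodl* was at 6.55, 1.44 and 7.23 CPM in the myoblasts of Uninjured, 3 and 7 dpi, *Nppc* at 18, 0.719 and 4.34 CPM, *Notch3* at 0, 16.5 and 4.34 CPM and *Heyl* at 4.91, 19.8 and 6.51 CPM. *Bmp4* was at 14.7, 11.1 and 9.402 CPM in myoblasts, and *Myod1* at 350.2, 693 and 232 CPM. *Chodl*, *Nppc*, *Notch3* and *Heyl* were lower in myoblasts than in satellite cells of the same library each time, and *Myod1* was higher. *Cdkn1c*, a cyclin-dependent kinase inhibitor of differentiating muscle, was at 10814, 539 and 4327 CPM in myoblasts and 60.5, 32.03, 34.2 and 122 CPM in satellite cells of the 4 libraries, and *Mymk* at 697, 144 and 290.0 CPM in myoblasts. *Top2a* was at 62.2, 312 and 62.2 CPM in myoblasts, above satellite cells in Uninjured and below them at 3 and 7 dpi. Since the rule separates these cells by *Myog*, the differences are a description.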

How the data were processed

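Single-cell RNA-seq libraries of 4 time points were used, 1 per time point. The deposited values are raw UMI counts per gene and cell, which the authors made with Cell Ranger (version 5.0.0, submitters' processing notes, mm10). The notes also name Seurat (version 3.1.1) and down-sampling of reads as required, and whether these libraries were down-sampled is not given in the sources used here. Cells with over 10% mitochondrial UMIs were left out. No doublets were removed, and leaving out the 7.5% of cells with the highest Scrublet score was an alternative.

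UMIs were summed over the satellite cells of a library and scaled to CPM. A gene was compared when the library with the higher level held at least 50 UMIs and called at a 2-fold difference, and a library at 0 was set to 3 UMIs. Intervals (95%) were exact Poisson for levels, conditional binomial for ratios and Clopper-Pearson for shares. All cover counting error only. Shares of cells were taken after thinning to 2000 UMIs per cell. Python 3.11.15, numpy 2.4.6, scipy 1.17.1, pandas 2.3.3 and scanpy 1.11.5 were used. Named genes were the 10 with the largest ratio in each direction among compared genes with a UMI in at least 10% of the satellite cells, at least 5 times the level of lymphocytes and 0.5 times that of mesenchymal cells, and members of 26 gene lists. The members and the lists were chosen with earlier results of these data known, so counts over a list describe it and are no independent evidence. On simulated counts for the 4 comparisons in order (1 dpi to Uninjured, 3 to 1 dpi, 7 to 3 dpi, 7 dpi to Uninjured), 99.2%, 98.3%, 98.1% and 100% of the changed genes came out past 2-fold in the right direction. Of the unchanged genes, 0.176%, 2.48%, 1.51% and 0.1% came out past 2-fold as well. The intervals covered 96.7%, 98.3%, 100% and 91.9% of the changed genes. The simulated counts were Poisson draws from the pooled sums, with the changed genes set 3- or 4-fold apart, past the 2-fold limit. They held no spread between cells or between libraries. These shares therefore cover counting error only and do not give the accuracy of the calls. Some genes that these rules name, and 1 of the marker lists, are not reported here.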

Additional observations from a re-analysis of the deposited data

How the results depend on the processing

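Under all alternatives together, 386 values of gene lists and 1039 of named genes stayed within their counting interval, 498 and 547 moved out of it, and 31 and 25 called values changed sign. The interstitial matrix list changed sign in 1 dpi to Uninjured (-1.39 at sum 3, -1.32 with *Pax7*, -0.56 without doublets and -1.21 without the deepest). The mesenchymal markers changed sign in 1 dpi to Uninjured (-1.56 at sum 3, -1.42 with *Pax7*, -0.11 without other lineages, -1.09 without doublets and -1.57 without the deepest). *Col1a1* changed sign in 1 dpi to Uninjured (-3.14 at sum 3, -2.92 with *Pax7*, -1.17 without other lineages, -2.07 without doublets and -2.67 without the deepest). The cartilage and bone list changed sign in 3 to 1 dpi (0.71 at sum 3, 0.64 with *Pax7*, 0.23 without other lineages, 0.65 without doublets and 0.49 without the deepest). The interstitial matrix list changed sign in 3 to 1 dpi (0.71 at sum 3, 0.72 with *Pax7*, 0.79 without doublets and 0.66 without the deepest). The mesenchymal markers changed sign in 3 to 1 dpi (0.64 without doublets and 0.10 without the deepest). *Col1a1* changed sign in 3 to 1 dpi (2.46 at sum 3, 2.34 with *Pax7*, 1.29 without other lineages, 2.92 without doublets and 2.22 without the deepest). *Notch3* changed sign in 7 to 3 dpi (-0.034 thinned). In cells under 10000 UMIs alone, log2 ratios had the opposite sign in 1 dpi to Uninjured, at -0.22 for the interstitial matrix list, -0.48 for the mesenchymal markers and -0.57 for *Col1a1*. They also had it in 3 to 1 dpi, at 0.28 for the cartilage and bone list, 0.21 for the basement membrane list, 1.33 for the interstitial matrix list, 1.76 for the mesenchymal markers, 0.31 for the mural markers, 0.083 for *Cd34* and 2.31 for *Col1a1*. They also had it in 7 to 3 dpi, at -0.38 for the quiescence list, -0.53 for the immediate early list, -0.010 for the list of BMP ligands, receptors and antagonists, -0.022 for the Notch list, -0.69 for *Chodl*, -0.33 for *Fgfr4*, -0.12 for *Spry1*, -0.63 for *Heyl*, -0.23 for *Notch3*, 0.19 for *Mcm3*, 0.26 for *Cdk1*, -0.034 for *Fos*, -0.36 for *Jun*, -0.32 for *Atf3* and -0.16 for *Bmp6*. The causes were not tested. Of the counts of genes past 2-fold and the shares of cells, 141 values held and 91 moved, as follows. Without cells that held a UMI of a chosen marker of another lineage (*Pdgfra*, *Dcn*, *Cdh5*, *Pecam1* and *Rgs5* among them), the counts were 106 higher for 1 dpi to Uninjured, 242 lower for 3 to 1 dpi, 195 higher and 720 lower for 7 to 3 dpi and 89 higher and 65 lower for 7 dpi to Uninjured. With every cell thinned to 2000 UMIs, the counts were 67 higher and 165 lower for 1 dpi to Uninjured, 652 higher and 121 lower for 3 to 1 dpi, 111 higher and 249 lower for 7 to 3 dpi and 99 higher and 67 lower for 7 dpi to Uninjured. At a minimum of 100 UMIs, the counts were 75 higher and 170 lower for 1 dpi to Uninjured, 252 lower for 3 to 1 dpi, 287 higher for 7 to 3 dpi and 117 higher and 105 lower for 7 dpi to Uninjured. At a minimum of 20 UMIs, the counts were 608 higher and 571 lower for 1 dpi to Uninjured, 927 lower for 3 to 1 dpi, 927 higher for 7 to 3 dpi and 578 higher and 354 lower for 7 dpi to Uninjured. Without a minimum, the counts were 3056 higher and 1133 lower for 1 dpi to Uninjured, 6350 lower for 3 to 1 dpi, 5447 higher for 7 to 3 dpi and 2511 higher and 1807 lower for 7 dpi to Uninjured. At 3-fold, the counts were 56 higher and 78 lower for 1 dpi to Uninjured, 686 higher and 276 lower for 3 to 1 dpi, 234 higher and 467 lower for 7 to 3 dpi and 103 higher and 66 lower for 7 dpi to Uninjured. At a minimum of 100 CPM (chosen after seeing the data), the counts were 102 higher and 113 lower for 1 dpi to Uninjured, 485 higher and 311 lower for 3 to 1 dpi, 239 higher and 275 lower for 7 to 3 dpi and 106 higher and 83 lower for 7 dpi to Uninjured. Within 2 SD of the depth of the library, the counts were 545 lower for 1 dpi to Uninjured. By the mean of per-cell CPM, the counts were 528 lower for 1 dpi to Uninjured and 271 higher for 7 to 3 dpi. Without the 5 deepest cells (chosen after seeing the data), the counts were 502 lower for 1 dpi to Uninjured. Among cells under 10000 UMIs (chosen after seeing the data), the counts were 258 higher and 63 lower for 3 to 1 dpi, 164 higher and 161 lower for 7 to 3 dpi and 91 lower for 7 dpi to Uninjured. Without doublet candidates, the counts were 110 lower for 7 dpi to Uninjured. The percent of satellite cells was 0.820% (Uninjured), 0.488% (1 dpi), 0.935% (3 dpi) and 0.530% (7 dpi) without other lineage markers, 1.03% (Uninjured), 0.719% (1 dpi), 1.25% (3 dpi) and 0.676% (7 dpi) with cells thinned before the rule, 2.07% (1 dpi), 4.07% (3 dpi) and 1.11% (7 dpi) of cells without *Ptprc*. It was 1.997% (3 dpi) and 0.656% (7 dpi) at a marker sum of at least 3, 2.005% (3 dpi) and 0.717% (7 dpi) with *Pax7* required, 2.23% (3 dpi) within 2 SD of depth. The share with *Mki67* or *Top2a* was 1.49% (Uninjured), 31.9% (3 dpi) and 11.4% (7 dpi) at 1000 UMIs, 0% (1 dpi) and 30.6% (3 dpi) without other lineage markers, 47.8% (3 dpi) at a marker sum of at least 3, 62.2% (3 dpi) and 25.9% (7 dpi) without thinning. The share with *Myod1* was 31.4% (Uninjured), 32.7% (1 dpi), 59.1% (3 dpi) and 25.9% (7 dpi) without thinning, 7.43% (Uninjured), 24.4% (3 dpi) and 8.06% (7 dpi) at 1000 UMIs, 39.1% (3 dpi) without doublet candidates, 21.2% (7 dpi) without other lineage markers. With 1 library per time point no value could be computed without a replicate. No paired analysis was possible because each group holds 1 library. The fewest UMIs, 811639, were summed at 1 dpi.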

Other observations

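Inflammatory, stress and arrest genes of the satellite cells followed several courses. The 24 cytokine and chemokine genes had 2 called higher and 2 lower of 9 compared at 1 dpi against Uninjured (5.38% and 8.55% of all genes), 4 and 1 of 13 at 3 dpi against 1 dpi (26.6% and 7.05% of all genes), and 3 and 4 of 16 at 7 dpi against 3 dpi (6.82% and 19.2% of all genes). *Ccl2*, which attracts monocytes, was at 35.6, 111, 143 and 64.7 CPM in satellite cells in the order Uninjured, 1, 3 and 7 dpi and at 564, 839, 1232 and 389.6 CPM in mesenchymal cells. *Saa3*, an acute phase gene, was at 0.636, 75.2, 50.8 and 2.52 CPM and at 2.98, 97.8, 52.5 and 29.98 CPM in mesenchymal cells. *Csf1*, the growth factor of macrophages, was at 38.8, 39.4, 109 and 32.8 CPM. *Ccl2* and *Saa3* were at higher levels in mesenchymal cells at 1 dpi, and what free RNA adds to them in satellite cells was not tested.

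Of the 15 metal and oxidative stress genes, 3 were called higher and 2 lower of 11 compared at 3 dpi against 1 dpi, where 26.6% and 7.05% of all genes were. *Mt1* and *Mt2*, the metallothioneins, were the genes called lower, and *Txn1*, thioredoxin, *Ftl1*, the ferritin light chain, and *Gpx1*, a glutathione peroxidase, those called higher. *Txn1* was at 473, 414, 1207 and 580.0 CPM and *Mt2* at 1694, 2231, 542 and 818 CPM. Of the 16 genes of p53 and arrest, 7 were called higher and 3 lower of 13 in the same comparison, with the same shares over all genes, and 3 and 3 of the 8 that held the minimum of 50 UMIs at both times. *Cdkn2a*, the locus of p16 and p19, was at 5.09, 8.62, 54.1 and 29.4 CPM, and *Ccng1*, a p53 target, at 24.8, 20.9, 45.1 and 25.2 CPM. *Gadd45a*, a stress gene, was at 379.9, 256, 68.1 and 261 CPM, lowest at 3 dpi.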
